A study of Rattus norvegicus with 16 samples.

Results

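The transcription factors that hold beta cells in their identity were followed over untreated rat islets and islets labelled as given a control adenovirus or one with Nkx6.1. They were taken as the probe sets that the platform annotation assigns to 9 gene symbols: Nkx6-1, Pdx1, Nkx2-2, Neurod1, Pax6, Mafa, Foxa2, Isl1 and Insm1. Of these symbols 8 were found and Insm1 was skipped, which gave 9 probe sets of the 31042 that are no controls. Isl1 had 2 probe sets and every other factor had 1, Nkx6-1 included. None of the 9 was annotated to a further gene.

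The islets came from male Wistar rats of 8 weeks and were kept in RPMI medium with 8 mM glucose and 10% fetal bovine serum. Islets were left untreated (5 arrays), were given a control adenovirus with bacterial β-galactosidase (Adβgal, 6 arrays) or one with Nkx6.1 (AdNkx6.1, 5 arrays). The viruses were present for 18 h and islets were collected 48 h after their addition, so Adβgal and AdNkx6.1 islets share exposure to a virus and untreated islets do not. The promoter in the viruses and the share of islet cells that took them up are not given in the sources used here. The titles call the arrays biological replicates without saying whether each came from its own animals, and the p-values therefore measure the spread between these arrays, which may in part be technical. The protocol speaks of 5 replicates per condition, and all 6 Adβgal arrays were used.

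Islet transcription factors act in a chain and in loops. Foxa2, a forkhead factor, and Pdx1, Nkx6-1, Nkx2-2, Isl1 and Pax6, which bind DNA through homeodomains, take part in forming the pancreas and its endocrine cells, and Neurod1, a basic helix-loop-helix factor that binds E-boxes, drives endocrine differentiation. In the adult islet Pdx1, Nkx6-1 and Mafa are enriched in beta cells, where Pdx1, Neurod1 and Mafa bind the insulin gene, whereas Pax6, Nkx2-2, Neurod1, Isl1 and Foxa2 are made in other endocrine cells as well.

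Of the 3 factors that passed the test as lower with AdNkx6.1 than with Adβgal, the 250 bases before the transcription start are shown here. The letters marked in them are E-boxes, the kind of site that Neurod1 binds, and not homeodomain sites. The windows are from the RefSeq table of build GRCr8. Capitals mark every E-box, spelled CANNTG, which reads the same on both strands; adjoining E-boxes run together. The Nkx6-1 window lies at chr14:8273988-8274237 on the plus strand and the Pdx1 window at chr12:12799157-12799406 on the minus strand. The Pax6 window, at chr3:112590346-112590595 on the plus strand, precedes a start inside the annotated gene, which spans positions 112590034 to 112611771 of chromosome 3.
Nkx6-1: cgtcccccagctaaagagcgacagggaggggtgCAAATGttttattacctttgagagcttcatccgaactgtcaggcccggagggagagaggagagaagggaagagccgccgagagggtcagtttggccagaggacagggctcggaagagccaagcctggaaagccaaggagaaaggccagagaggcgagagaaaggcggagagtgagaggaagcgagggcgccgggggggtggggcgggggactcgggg
Pdx1: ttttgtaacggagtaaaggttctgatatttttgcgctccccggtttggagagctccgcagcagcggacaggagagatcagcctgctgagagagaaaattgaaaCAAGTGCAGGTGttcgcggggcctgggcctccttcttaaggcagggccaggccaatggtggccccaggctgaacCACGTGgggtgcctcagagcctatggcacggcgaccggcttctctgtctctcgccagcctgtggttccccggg
Pax6: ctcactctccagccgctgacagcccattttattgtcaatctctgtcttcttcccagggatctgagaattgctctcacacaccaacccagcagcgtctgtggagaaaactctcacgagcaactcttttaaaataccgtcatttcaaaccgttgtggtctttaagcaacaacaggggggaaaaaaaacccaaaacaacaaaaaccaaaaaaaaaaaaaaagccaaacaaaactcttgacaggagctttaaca

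The Pdx1 window held 3 E-boxes, the Nkx6-1 window 1 and the Pax6 window 0. Windows were found for 7 of the 8 factors, not for Mafa, and 4 of the 7 held an E-box (Neurod1 and Isl1 also 1 each), against 65.5% of all 33469 windows of this length in the table. The homeodomain core TAATTA, the forkhead letters TGTTTAC and the E-box form CAGATG, each searched on both strands, stood in 0 of the 7 windows. Among all windows, 4.86% held TAATTA, 3.21% TGTTTAC and 14.0% CAGATG, the last of which is also counted among the E-boxes. These matches describe letters in a short window and are not binding sites.

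The arrays held the RNA of whole islets. Insulin RNA, the defining product of beta cells, was high on all arrays, with group means of Ins1 between 14.69 and 14.75 on the log2 intensity scale and of Ins2 between 14.76 and 14.82. These 2 genes are named as the check of the tissue. In RNA of whole islets, fewer cells of a type and less RNA per cell cannot be told apart. Markers of acinar cells, the enzyme-making cells around islets, differed between arrays of 1 group: their summed intensity over 25 genes ran from 46457 to 73873 in untreated islets, from 35680 to 166800 in Adβgal islets and from 36680 to 94486 in AdNkx6.1 islets. Adβgal replicates 4, 5 and 6 were the highest of all 16, and several results are also given without them. None of these markers was at 0. Genes of the interferon response rose with the control virus already: all 21 measured were higher with Adβgal than untreated, beside 2.84% of all genes. With AdNkx6.1 10 of the 21 were higher again than with Adβgal, beside 16.6% of all genes. The part of this response in the factors' changes was not tested.

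Every factor had its highest mean in untreated islets, a lower one with Adβgal and the lowest with AdNkx6.1. Not all of these steps exceeded the spread between arrays. For Isl1, read from its brighter probe set, the median intensity with Adβgal (2399) was above the untreated one (2388). In limma fits over 14217 genes with an adjusted p of 0.05 as the threshold, 3 of the 8 factors fell with AdNkx6.1 against Adβgal (Nkx6-1, Pax6, Pdx1), where 8.48% of all genes were called lower. Another 3 of 8 fell with Adβgal against untreated (Nkx2-2, Neurod1, Foxa2), where 4.17% of all genes were called lower. All 8 fell with AdNkx6.1 against untreated, where 13.8% were called lower. In these counts Nkx6-1 stands for the signal of its single probe set. Whether that signal includes RNA from the virus is not known, so the counts do not speak of total Nkx6-1 RNA. No factor was called higher in any of the 3 comparisons, where 16.6%, 2.84% and 16.9% of genes were, and none had a change above 0, so the count of higher factors at an unadjusted p under 0.05 was 0 as well. The median log2 change of the 8 was -0.28, -0.28 and -0.62 in that order, beside 0.02, -0.04 and -0.01 over all genes. The first 2 comparisons share the Adβgal arrays, and each shares a group with the last, so the 3 sets of values are not independent.

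**Figure D1:**
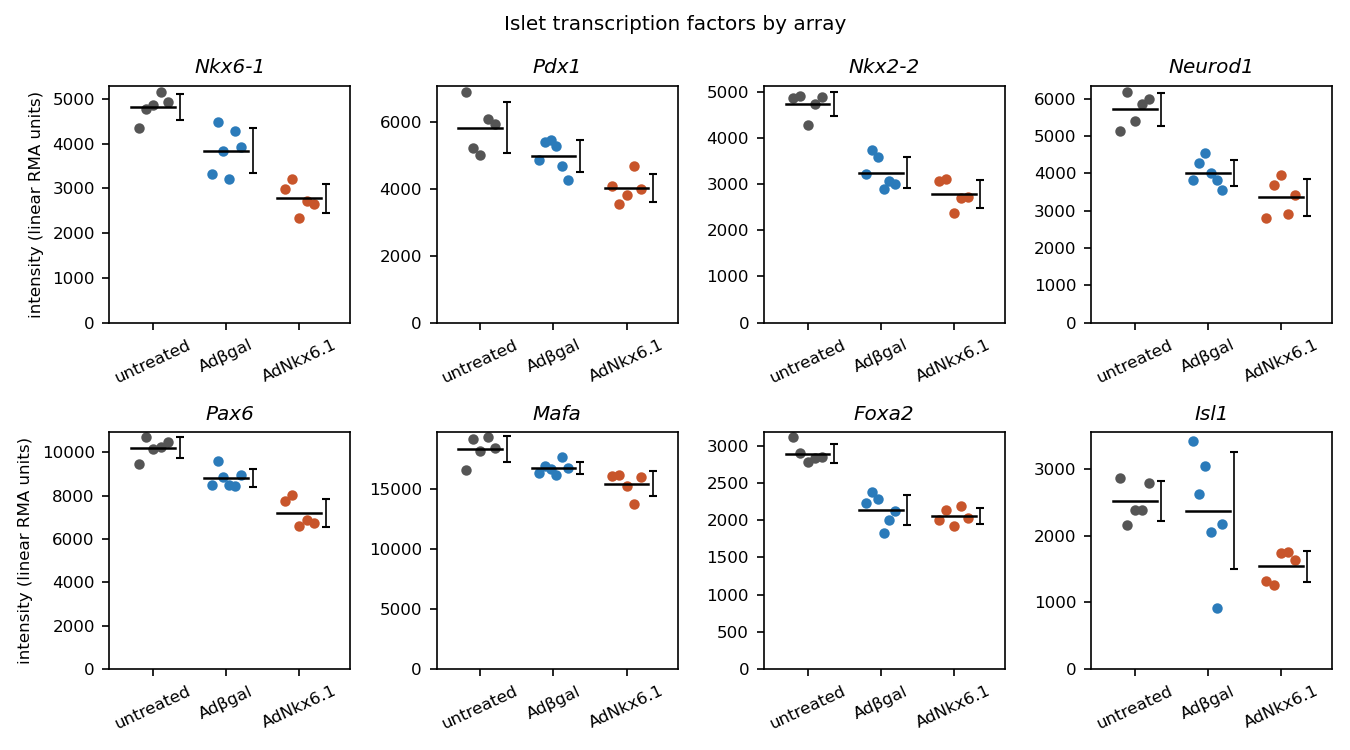
Intensity of the 8 factors (linear RMA units, each axis from 0) on every array, one panel per gene and one column per group; points are arrays, lines are group means and bars beside them are ±1 SD of the intensities. For all 8 factors every AdNkx6.1 array lies below every untreated array; Isl1 has 1 Adβgal array, at 921, far below the other Adβgal arrays.

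Nkx6-1 is the factor that the AdNkx6.1 virus carries, per the labels. Its intensity was 4354, 4781, 4878, 5153 and 4927 on the untreated arrays, lay between 3219 and 4484 with a median of 3883 with Adβgal, and was 2984, 3204, 2338, 2726 and 2654 with AdNkx6.1. The AdNkx6.1 arrays were all below the Adβgal arrays, and 5 of the 6 Adβgal arrays were below every untreated array. The log2 mean was 12.23 ± 0.090 (SD, n = 5) untreated, 11.90 ± 0.19 (n = 6) with Adβgal and 11.43 ± 0.17 (n = 5) with AdNkx6.1. The signal of the Nkx6-1 probe set was thus 1.74-fold lower with AdNkx6.1 than untreated (log2 change -0.80 ± 0.10 SE, limma adjusted p = 2.5e-05). Compared with Adβgal it was 1.38-fold lower with AdNkx6.1 (-0.46 ± 0.098, limma adjusted p = 0.0023). The step from untreated to Adβgal was -0.33 ± 0.098 and missed the threshold (adjusted p = 0.051). That step passed when Adβgal replicate 2 or 5 was left out, and likewise AdNkx6.1 replicate 2 or 3 (adjusted p from 0.023 to 0.05). Its log2 change was -0.32 when Adβgal replicates 4, 5 and 6 were left out (adjusted p = 0.12).

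The single Nkx6-1 probe set, 1368998_at, is annotated to the rat gene on chromosome 14, positions 8274238 to 8281171 of GRCr8. No source used here says whether its probes lie within the sequence carried by the virus. It therefore does not check whether the islets labelled AdNkx6.1 received Nkx6.1, and the values above are those of the RNA this probe set reads. Over the 16 arrays Nkx6-1 followed most closely Gprasp1, a sorting protein of G protein-coupled receptors (Pearson r = 0.974), Brinp2 (r = 0.967) and the transcriptional co-regulator gene Mier1 (r = 0.966), among 7074 genes brighter than the median gene. Arrays of 1 group share a treatment, so this likeness includes the group differences.

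Pdx1, a regulator of pancreas formation and of the insulin gene, read 6895, 5219, 4987, 6077 and 5922 untreated, 4242 to 5437 with a median of 5068 with Adβgal, and 4062, 3547, 3819, 4663 and 3981 with AdNkx6.1. Of the 5 AdNkx6.1 arrays 4 were below every Adβgal array, and replicate 4 stood among them. Pdx1 was 1.24-fold lower with AdNkx6.1 than with Adβgal (log2 change -0.31 ± 0.097 SE, adjusted p = 0.027) and 1.45-fold lower than untreated (-0.53 ± 0.10, adjusted p = 0.00083). With Adβgal against untreated the groups overlapped, and the change of -0.22 ± 0.097 was not called (adjusted p = 0.17). The call against Adβgal was lost when any 1 of Adβgal replicates 2 and 3 or AdNkx6.1 replicates 2, 3 and 5 was left out (adjusted p between 0.052 and 0.073), with log2 changes from -0.31 to -0.27 in those fits. Without Adβgal replicates 4, 5 and 6 it held, at -0.39 (adjusted p = 0.017).

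Mafa, the beta cell activator of insulin transcription that appears late in maturation, had the smallest measured change with AdNkx6.1 against untreated. In each group its mean was above that of at least 99.4% of genes. Whether its probe set could show a larger fall at that brightness was not tested. Its intensity was 16645, 19254, 18198, 19362 and 18443 untreated, 16227 to 17733 with a median of 16748 with Adβgal, and 16152, 16178, 15281, 13767 and 16054 with AdNkx6.1. The 5 AdNkx6.1 arrays were below all 6 Adβgal arrays, though by a gap that was small beside the range within either group. The log2 change was -0.12 ± 0.061 against Adβgal and was not called (adjusted p = 0.17; 95% interval -0.25 to 0.01). Against untreated Mafa fell 1.19-fold (-0.25 ± 0.064, adjusted p = 0.0079). The change between Adβgal and untreated, -0.13 ± 0.061, was not called either (adjusted p = 0.21).

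Pax6, needed for the hormone genes of all islet endocrine cells, fell in both comparisons with AdNkx6.1. It read 9441, 10702, 10156, 10258 and 10473 untreated, 8441 to 9582 with a median of 8689 with Adβgal, and 7746, 8030, 6584, 6894 and 6752 with AdNkx6.1. The AdNkx6.1 arrays did not overlap with either other group, while 1 Adβgal array exceeded the lowest untreated one. Pax6 was 1.23-fold lower with AdNkx6.1 than with Adβgal (log2 change -0.29 ± 0.066, adjusted p = 0.0037), a call kept without each single array, and 1.42-fold lower than untreated (-0.51 ± 0.069, adjusted p = 4.6e-05). From untreated to Adβgal the change was -0.21 ± 0.066 (adjusted p = 0.064), which passed without Adβgal replicate 2 (adjusted p = 0.039). Its closest companions over the arrays were Ap1s2, a clathrin adaptor subunit (r = 0.980), Rnf130, a ubiquitin ligase (r = 0.966), and Gprasp1 (r = 0.965), which also led for Nkx6-1.

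Counting arrays in place of a threshold on p, 3 of 8 factors (Nkx6-1, Pax6, Mafa) had every AdNkx6.1 array below every Adβgal array, as did 3.78% of all genes. With Adβgal against untreated the factors without overlap were also 3 (Nkx2-2, Neurod1, Foxa2), beside 4.83% of genes. With AdNkx6.1 against untreated none of the 8 overlapped, beside 14.7% of genes that were lower without overlap.

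Nkx2-2, a homeodomain repressor and activator needed for beta cell formation, passed the test in both comparisons with untreated islets. Its intensity was 4877, 4917, 4295, 4737 and 4886 untreated, 2895 to 3735 with a median of 3146 with Adβgal, and 3077, 3112, 2373, 2705 and 2733 with AdNkx6.1. No virus-treated array of either kind reached an untreated one, whereas the groups given virus overlapped. Nkx2-2 was 1.46-fold lower with Adβgal than untreated (log2 change -0.55 ± 0.086, adjusted p = 0.0022) and 1.70-fold lower with AdNkx6.1 than untreated (-0.77 ± 0.090, adjusted p = 1.0e-05). Between AdNkx6.1 and Adβgal Nkx2-2 changed by -0.22 ± 0.086 and was not called (adjusted p = 0.078). Without Adβgal replicate 4 that difference passed (adjusted p = 0.043), and without replicates 4, 5 and 6 it was -0.33 (adjusted p = 0.015).

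Neurod1, the E-box factor that drives endocrine differentiation and insulin transcription, followed the same order. It read 5125, 6174, 5413, 5866 and 5998 untreated, 3554 to 4544 with a median of 3924 with Adβgal, and 2811, 3692, 3962, 2912 and 3418 with AdNkx6.1. All virus-treated arrays were below the untreated ones, and 3 of the 5 AdNkx6.1 arrays were below every Adβgal array. The fall with Adβgal was 1.43-fold (log2 change -0.51 ± 0.096, adjusted p = 0.0056) and with AdNkx6.1 1.71-fold against untreated (-0.78 ± 0.10, adjusted p = 2.5e-05). Against Adβgal the change of -0.26 ± 0.096 missed the threshold (adjusted p = 0.056). It passed without Adβgal replicate 6 or AdNkx6.1 replicate 2 or 3 (adjusted p from 0.021 to 0.046), and 7 of the 10 other settings tried also called it.

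Foxa2, the forkhead factor that opens endoderm genes early and is kept in the adult islet, was lower than untreated with either virus. The untreated arrays read 3114, 2900, 2782, 2831 and 2845, the Adβgal arrays 1830 to 2385 with a median of 2180, and the AdNkx6.1 arrays 2009, 2137, 1927, 2191 and 2030. The AdNkx6.1 values fell inside the Adβgal range, and all of both lay below the untreated arrays. Foxa2 was 1.36-fold lower with Adβgal (log2 change -0.44 ± 0.071, adjusted p = 0.0025) and 1.41-fold lower with AdNkx6.1 (-0.49 ± 0.074, adjusted p = 0.00011) than untreated. The difference between the viruses was -0.05 ± 0.071, with a 95% interval from -0.20 to 0.10 (adjusted p = 0.63). That interval allows a fall of up to 1.15-fold with AdNkx6.1. Without Adβgal replicates 4, 5 and 6 the difference was -0.16, with an interval from -0.30 to -0.03 that allows a fall of up to 1.23-fold (adjusted p = 0.070).

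Within the Adβgal group, Foxa2 and Nkx2-2 were lowest on the arrays with the most acinar RNA. Foxa2 read 1830, 1999 and 2122 on replicates 4, 5 and 6 and 2237, 2385 and 2280 on replicates 1, 2 and 3. Nkx2-2 read 2895, 3069 and 3003 against 3223, 3735 and 3601 on the same arrays. The mean of the acinar markers on the log2 scale, relative to untreated, was 1.86, 1.31 and 1.39 on replicates 4, 5 and 6 and 0.27, -0.79 and 0.72 on replicates 1, 2 and 3. Leaving the former 3 arrays out made the falls with Adβgal smaller, though still called, at -0.33 for Foxa2 (adjusted p = 0.016), -0.43 for Nkx2-2 (adjusted p = 0.024) and -0.44 for Neurod1 (adjusted p = 0.049). Over all 16 arrays, with group means removed, the correlation with the acinar mean was -0.72 for Foxa2, -0.53 for Nkx2-2 and 0.05 for Neurod1. Markers of macrophages and leukocytes (25 genes) were also highest on replicates 4, 5 and 6 of Adβgal, at 0.26, 0.52 and 0.81 relative to untreated against -0.17, -0.21 and -0.11 on replicates 1, 2 and 3, and correlated with Foxa2 at -0.51 and with Nkx2-2 at -0.46. The part of RNA from these cells in the rest of these falls was not tested.

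Isl1, a LIM homeodomain factor of all islet endocrine cells, had the widest spread within the Adβgal group. Its brighter probe set, 1369681_at, read 2870, 2165, 2388, 2384 and 2791 untreated, 921 to 3424 with a median of 2399 with Adβgal, and 1315, 1254, 1734, 1757 and 1640 with AdNkx6.1. Adβgal replicate 5, at 921, was the lowest of all 16 arrays, and the other Adβgal arrays were all above the AdNkx6.1 arrays. The log2 SD was 0.68 with Adβgal, 0.17 untreated and 0.23 with AdNkx6.1. Isl1 was 1.64-fold lower with AdNkx6.1 than untreated (log2 change -0.72 ± 0.26, adjusted p = 0.047), and this call was lost when any 1 of 13 of the 16 arrays was left out, at adjusted p-values up to 0.10. With Adβgal replicates 4, 5 and 6 left out the same change had an adjusted p of 0.00031. Its SE was then 0.12, because the fit shares its estimate of spread over the groups.

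Against Adβgal the Isl1 change was -0.53 ± 0.25 and was not called (adjusted p = 0.14). Without Adβgal replicate 5 it was -0.78 (adjusted p = 0.00089), and without replicates 4, 5 and 6 it was -0.98 (adjusted p = 0.00013). Replicates 4, 5 and 6 held the lowest Isl1 values of the Adβgal group. Leaving them out therefore had to raise the Adβgal mean and enlarge this fall. Adβgal against untreated gave -0.19 ± 0.25 (adjusted p = 0.67), which turned to 0.06 without replicate 5 and to 0.27 without replicates 4, 5 and 6 (adjusted p = 0.28). Several marker means moved with Isl1 within groups: the correlation over the 16 arrays was -0.75 with 16 endothelial markers, -0.63 with 15 duct markers, -0.53 with the leukocyte markers and -0.46 with the acinar ones. The endothelial mean was highest of all arrays on Adβgal replicate 5 (1.40 relative to untreated), where Isl1 was lowest, and lowest on replicate 1 (-0.87), where Isl1 was highest at 3424. The part of these cells in the Isl1 values was not tested.

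The dim Isl1 probe set, 1396895_at, had intensities from 8.41 to 13.0 over the 16 arrays, near the bottom of the scale. Its log2 changes were -0.23 with AdNkx6.1 against Adβgal (adjusted p = 0.089 over all probe sets), 0.20 with Adβgal against untreated (adjusted p = 0.17) and -0.03 with AdNkx6.1 against untreated (adjusted p = 0.89). At that brightness it says little about Isl1. In the fit over all probe sets, which called 8.98%, 4.07% and 10.6% lower in these comparisons, neither Isl1 probe set was called, and with AdNkx6.1 against untreated the bright one missed the threshold (adjusted p = 0.066).

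**Figure D2:**
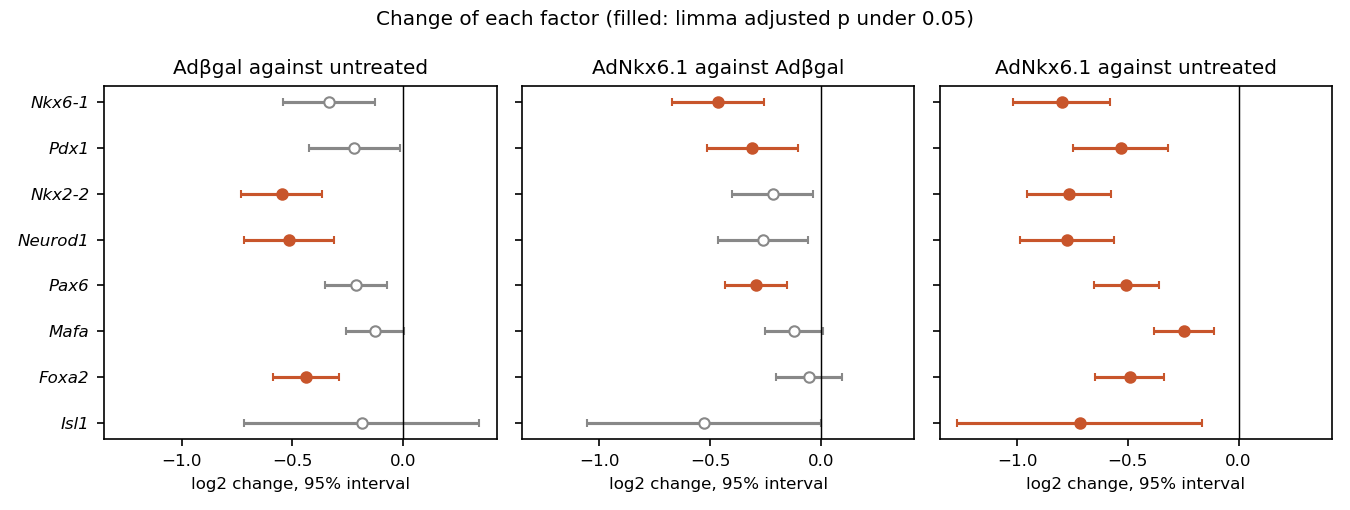
Log2 change of each factor with its 95% interval from the limma fit, one panel per comparison; filled points have an adjusted p under 0.05. Nkx2-2, Neurod1 and Foxa2 are filled for Adβgal against untreated, Nkx6-1, Pdx1 and Pax6 for AdNkx6.1 against Adβgal, and all 8 for AdNkx6.1 against untreated.

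Whether the steps differed in size was tested in the same fit, as the change from Adβgal to AdNkx6.1 minus the change from untreated to Adβgal. This contrast was added after the values were seen. Foxa2 differed, with steps of -0.44 and -0.05 and a difference of 0.39 ± 0.12 (adjusted p = 0.045), in a contrast that called 13.8% of genes. The Foxa2 call was lost without any 1 of the untreated arrays, of AdNkx6.1 replicates 1, 2, 4 and 5 or of Adβgal replicates 4, 5 and 6, and also with array weights or with the replicate number as a block. Without Adβgal replicates 4, 5 and 6 together the Foxa2 difference was 0.17 (adjusted p = 0.38).

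For Isl1 the arrays chosen mattered as well. Over all arrays its steps differed by -0.34 ± 0.43 and were not called (adjusted p = 0.64). Without Adβgal replicate 5 the difference was -0.84 (adjusted p = 0.035), with array weights -0.88 (adjusted p = 0.042) and without Adβgal replicates 4, 5 and 6 it was -1.25 ± 0.25 (adjusted p = 0.0054). The arrays left out held the lowest Isl1 values of the Adβgal group, so their removal had to move the difference this way. For the other 6 factors no setting called a difference: over all arrays it was 0.33 for Nkx2-2 (adjusted p = 0.15), 0.25 for Neurod1 (adjusted p = 0.33) and -0.13 for Nkx6-1, with a 95% interval from -0.49 to 0.23.

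Within groups the factors did not vary as 1 block. After group means were removed, Nkx6-1 and Pax6 deviated together over the 16 arrays (Pearson r = 0.75, Spearman rho = 0.69), and r was 0.71 without the 2 arrays farthest from the median and 0.88 without Adβgal replicates 4, 5 and 6. Nkx2-2 went with Pax6 (r = 0.71, rho = 0.70) and with Foxa2 (r = 0.70, rho = 0.65), and these r were 0.57 and 0.59 without the 2 farthest arrays. Pdx1 did not go with Nkx6-1 (r = -0.19) and ran against Mafa (r = -0.57, rho = -0.41). Isl1 ran against Mafa (r = -0.49, rho = -0.65) and against Nkx6-1 (r = -0.44, rho = -0.39). The arrays share a normalization and differ in cell makeup, so these 28 pairs are given as a description without a test.

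**Figure D3:**
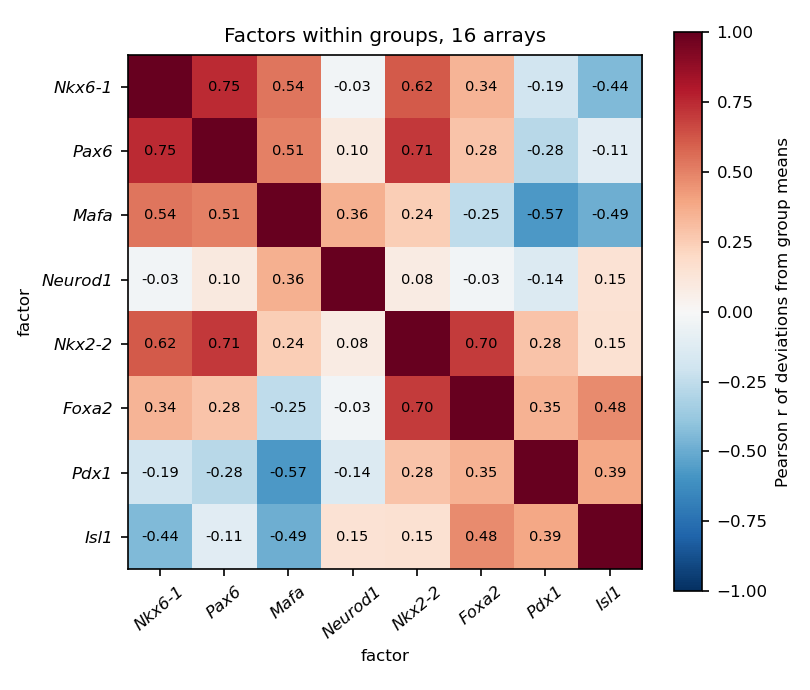
Pearson r between the factors' log2 deviations from their group means over 16 arrays, printed in each cell and coloured from blue (-1) to red (1). Nkx6-1, Pax6 and Nkx2-2 are red with each other, with r from 0.62 to 0.75, while Pdx1 and Isl1 are negative with Mafa. The 0.62 of Nkx6-1 with Nkx2-2 was 0.38 without the 2 farthest arrays.

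Isl1 deviations followed those of the mean of 20 beta cell genes (r = 0.75), as did those of Foxa2 (r = 0.64) and Nkx2-2 (r = 0.58), whereas Nkx6-1 (r = 0.10) and Mafa (r = 0.07) did not. Nkx6-1 ran against the mean of 13 markers of other islet endocrine cells (r = -0.60). Those markers moved with AdNkx6.1: 7 of 13 fell against Adβgal and 10 of 13 against untreated, and their summed intensity was 120255 to 131853 in untreated islets, 111533 to 129997 in Adβgal islets and 92231 to 111001 in AdNkx6.1 islets. Both counts stand beside 8.48% and 13.8% of all genes lower. Pax6, Nkx2-2, Neurod1, Isl1 and Foxa2 are also made in those cells. With group means removed, their correlation with the mean of these markers was -0.16 for Pax6, -0.18 for Nkx2-2 and -0.21 for Foxa2. It was 0.20 for Neurod1 and 0.37 for Isl1. Duct markers moved too, with 5 of 15 higher and 1 lower against Adβgal (16.6% and 8.48% of all genes) and 6 higher and 1 lower against untreated (16.9% and 13.8%). Their summed intensity was 57464 to 63243 in untreated islets, 58106 to 69674 in Adβgal islets and 75379 to 80924 in AdNkx6.1 islets, without overlap between AdNkx6.1 and either other group. The mean of the duct markers on the log2 scale, relative to untreated, did overlap. That mean ran from -0.06 to 0.11 untreated, from -0.22 to 0.52 with Adβgal and from 0.06 to 0.33 with AdNkx6.1. Nkx6-1 deviations also went with the endothelial markers (r = 0.65). The part of these cells in the falls was not tested.

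The genes that tracked each remaining factor over the arrays differed from factor to factor. Nkx2-2 was followed by Robo2, an axon guidance receptor (r = 0.976), Nsdhl, an enzyme of cholesterol synthesis (r = 0.968), and Ppp1r1a, an inhibitor of protein phosphatase 1 (r = 0.967). Foxa2 was followed by Tmem215 (r = 0.949), the somatostatin receptor gene Sstr3 (r = 0.945) and the vesicle GTPase gene Rab3b (r = 0.945). Isl1 was followed by the neuronal genes Stmn2 (r = 0.964) and Ncam1 (r = 0.961) and by Setd5 (r = 0.951). Mafa was followed by the kinase gene Araf (r = 0.964), Gdap1 (r = 0.945) and the granin gene Scg2 (r = 0.944), and Neurod1 by Cisd2 (r = 0.966), C1galt1 (r = 0.964) and Fam149a (r = 0.956). For Pdx1 the closest were weaker, with the bile acid receptor gene Nr1h4 at r = 0.879, Faap20 at 0.872 and Vwa5b2 at 0.869.

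Around the 8 factors, 24 other transcription factors of islets and their progenitors were measured. With AdNkx6.1 against Adβgal 10 fell and 3 rose, in a comparison that called 8.48% of genes lower and 16.6% higher, and the list's median log2 change was -0.23. Hes1, the Notch target that holds back endocrine differentiation, rose 2.41-fold (1.27, adjusted p = 8.1e-05), and Gata4, a zinc finger factor of early pancreas, rose 1.73-fold (0.79, adjusted p = 2.0e-05). Those that fell included Myt1 (-0.53, adjusted p = 1.4e-06) and Myt1l (-0.86, adjusted p = 2.2e-05), zinc finger factors of endocrine and neural cells. Hhex, needed in delta cells, changed by -0.93 (adjusted p = 2.9e-05) and Etv1 by -1.12 (adjusted p = 0.00013). Hhex and Etv1 also stand in the list of other endocrine markers. The 3 that rose became 5 without Adβgal replicate 5.

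With Adβgal against untreated only Hnf4a (-0.34, adjusted p = 0.026) and Gata4 (-0.36, adjusted p = 0.037) of the 24 were called, both lower, and both calls were lost without untreated replicate 1 or 2 or Adβgal replicate 6, which left 0. The Gata4 call was also lost without untreated replicate 3, 4 or 5 or AdNkx6.1 replicate 5, which left 1, and without Adβgal replicate 1. Against untreated, AdNkx6.1 islets had 11 of 24 lower and 3 higher, beside 13.8% and 16.9% of all genes. Hes1 was 2.86-fold higher there (1.52, adjusted p = 1.9e-05), Hhex changed by -1.04 (adjusted p = 1.2e-05), and Hnf4a, a nuclear receptor mutated in a monogenic form of diabetes, by -0.57 (adjusted p = 0.00016).

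Of 32 cofactors and binding partners of islet factors, 7 rose and 4 fell with AdNkx6.1 against Adβgal, where 16.6% of all genes were higher and 8.48% lower. Hdac1, a histone deacetylase, rose 1.76-fold (0.82, adjusted p = 6.6e-08), and Dnmt1, the maintenance DNA methyltransferase, changed by 0.42 (adjusted p = 0.0050). Meis1 and Meis2, homeodomain partners of Pbx proteins, changed by -0.66 (adjusted p = 9.1e-06) and -0.37 (adjusted p = 0.0018). Lmo4, a LIM-only protein, changed by -0.48 (adjusted p = 0.0051), and Smarca4, a chromatin remodelling ATPase, by 0.35 (adjusted p = 0.0029). With Adβgal against untreated limma called 0 of the 32, with 2 lower and 0 higher at an unadjusted p under 0.05. With AdNkx6.1 against untreated 6 were higher and 5 lower, beside 16.9% and 13.8% of all genes; the lower count was 2 or 3 without untreated replicates 1, 2 or 4 or AdNkx6.1 replicates 3, 4 or 5.

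Beta cell genes that these factors are known to control were listed as well. Of 20 measured, 1 rose and 1 fell with AdNkx6.1 against Adβgal, with a median log2 change of -0.03, where 16.6% of all genes were higher and 8.48% lower. Nnat, a small membrane protein of the secretory pathway, rose 1.46-fold (0.55, adjusted p = 0.00052). Kcnj11, the pore of the ATP-sensitive potassium channel, changed by -0.25 (adjusted p = 0.033), a call lost without any 1 of Adβgal replicates 1, 2 and 3 or AdNkx6.1 replicates 3, 4 and 5. The glucose transporter gene Slc2a2 changed by -0.18 and was not called (adjusted p = 0.076). The count of 1 lower was 0 to 2 with 1 array left out and 3 without Adβgal replicates 4, 5 and 6 together. Abcc8 changed by -0.19 over all arrays (adjusted p = 0.15) and by -0.33 without those replicates (adjusted p = 0.0017).

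With Adβgal against untreated 7 of the 20 fell and 0 rose (14 lower and 0 higher at an unadjusted p under 0.05), where 4.17% of all genes were lower and 2.84% higher. Ptprn2, a granule membrane phosphatase-like protein, changed by -0.54 (adjusted p = 0.0028), Glp1r, the incretin receptor gene, by -0.46 (adjusted p = 0.027) and Nnat by -0.42 (adjusted p = 0.017). The count of 7 was 2 without untreated replicate 2, 4 or 5 and 3 without Adβgal replicate 6, in a range from 2 to 9 with 1 array left out. Dropping Adβgal replicates 4, 5 and 6 together left 1. The count was 12 with arrays centred on their median and 4 after quantile normalization again. It was 1 with the replicate number as a block or with only those groups fitted. With AdNkx6.1 against untreated 11 fell and 0 rose (also 11 and 0 at an unadjusted p under 0.05), where 13.8% of all genes were lower. Among them were Slc2a2 (-0.42, adjusted p = 0.00045), Kcnj11 (-0.45, adjusted p = 0.00063), the sulfonylurea receptor gene Abcc8 (-0.44, adjusted p = 0.0027) and the granin genes Scg2 (-0.37, adjusted p = 0.0038) and Scg3 (-0.26, adjusted p = 0.0036). In the same comparison, in which all 8 factors fell, Ins1 changed by -0.06 with a 95% interval from -0.24 to 0.13 and Ins2 by -0.06 with an interval from -0.20 to 0.08, and neither was called. Both insulin genes read near the top of the intensity scale, and whether their probe sets could show a fall there was not tested.

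**Figure D4:**
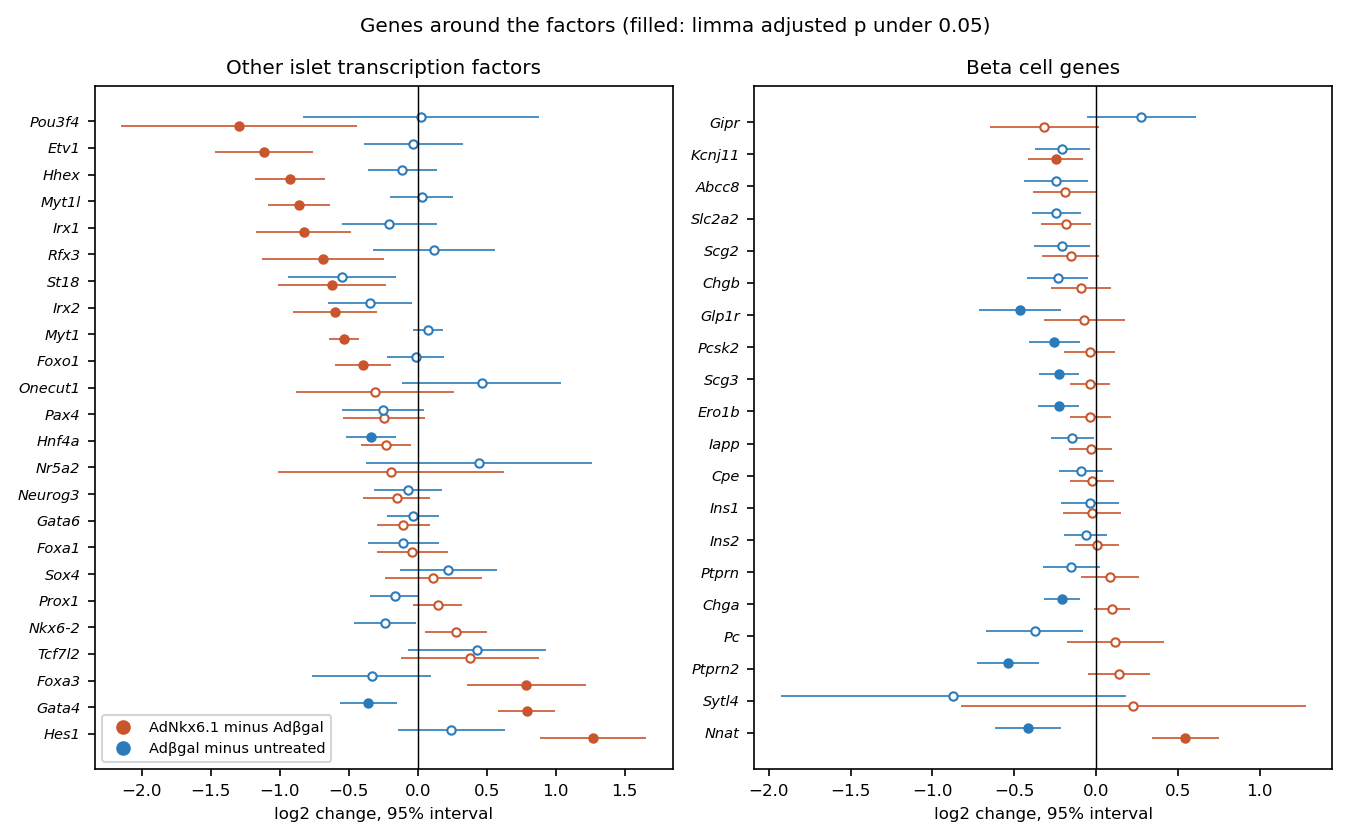
Log2 change with its 95% interval for the 24 other islet transcription factors (left) and the 20 beta cell genes (right), for AdNkx6.1 minus Adβgal (orange) and Adβgal minus untreated (blue); filled points have a limma adjusted p under 0.05. Orange points of the left panel spread from -1.29 for Pou3f4 to 1.27 for Hes1, while those of the right panel lie between -0.32 and 0.55.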

How the data were processed

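Total RNA of rat islets was measured on 16 1-colour Affymetrix arrays. The deposited values are probe set intensities on a linear scale, which the authors made with RMA per the submitters' processing notes; the version and the return from log2 are not given in the sources used here. They ran from 6.25 to 35765, and array medians from 264.8 to 296.2. Log2 was taken without a pseudocount, and no detection calls were used, so dim probe sets were kept. Control probe sets (57) were left out, and each gene was read from its brightest probe set (14217 genes).

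Linear models over the 3 groups together were fitted and moderated with lmFit, contrasts.fit and eBayes (limma 3.58.1, R 4.3.3). P-values were 2-sided and adjusted by Benjamini-Hochberg over all genes of a comparison. Scripts were tested on simulated data. The factors and lists were chosen with earlier results of these data known. All factors are named, with up to 6 genes of smallest p per list and comparison and the 3 genes that correlate best with each factor. The labels do not say whether equal replicate numbers mark shared animals or days, so the main fit held no replicate block. Of 15 same-numbered pairs 3 correlated above 0.1, which cannot decide this, since cell makeup also differed between arrays. Other settings tried were normalization, probe set choice, a dim filter, a pseudocount of 32, groups fitted, array weights, an intensity trend, a replicate block and left-out arrays. Promoters came from RefSeq GRCr8.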

Additional observations from a re-analysis of the deposited data

Results flagged for a closer look

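Nkx2-2 on untreated replicate 3 stood apart from the other untreated arrays. It read 4295, the lowest of the 5, and the gap to the next, 4737, was 0.724 of the group's range on the log2 scale, beyond Dixon's 95% value of 0.71. It was still above every virus-treated array. Of 27 groups tested in this way over the 9 probe sets this was the 1 that stood apart, and chance gives about 1 in 20.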

How the results depend on the processing

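With AdNkx6.1 against Adβgal the count of factors called lower was 3; it was 5 after quantile normalization again, 6 with array weights and 6 without Adβgal replicates 4, 5 and 6, and 2 to 4 with 1 array left out. With Adβgal against untreated it was 3, and 5 with arrays centred on their median, without the dimmest genes, with log2(value + 32), with array weights and with an intensity trend, the additions being Nkx6-1 and Pax6; with 1 array left out it was 3 to 5. With AdNkx6.1 against untreated it was 7 to 8 with 1 array left out. Genes called with Adβgal against untreated numbered 997; they numbered 1752 with centring, 521 with those groups fitted alone, 1790 with array weights and 552 without Adβgal replicates 4, 5 and 6. With 1 array left out they numbered 509 (untreated replicate 5) to 1503 (Adβgal replicate 2), with 620, 532 and 526 without untreated replicates 1, 2 and 4 and 647 without Adβgal replicate 6. The corresponding ranges were 2783 to 3933 of 3560 for AdNkx6.1 against Adβgal and 3558 to 5069 of 4360 for AdNkx6.1 against untreated, where array weights gave 7469. With the replicate block, Adβgal against untreated called 393 genes, AdNkx6.1 against Adβgal 2855 and AdNkx6.1 against untreated 3811, and the factors called lower numbered 3, 4 and 7; same-numbered arrays correlated between -0.39 and 0.25, and 4 of 15 correlated best with their own number. The Isl1 change between Adβgal and untreated turned sign with the mean of its probe sets (0.0073), with array weights (0.10), without Adβgal replicate 5 (0.063, the upper end of a range from -0.32 with 1 array left out) and without replicates 4, 5 and 6 (0.27). The Isl1 fall with AdNkx6.1 against untreated was not called with the mean of probe sets (-0.37, adjusted p = 0.070) or with the replicate block (adjusted p = 0.081). Centring moved the median of all genes by -0.06 with Adβgal and -0.08 with AdNkx6.1, each against untreated. The planned comparison between probe sets of Nkx6-1 was not run, since it has 1. The number of arrays limits all of these values, and the cause of each shift was not tested.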
